A study of Mus musculus with 8 samples.

Results

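The 32 genes described here are the absorptive and digestive programme of the small-intestinal enterocyte, read in sorted tuft cells. They were listed by name: 10 genes of lipid uptake and chylomicron assembly, 7 of sugar digestion, 6 of peptide digestion, 4 of phosphate ester and purine handling, and 5 lectins and Reg proteins. They make 32 of the 53655 gene symbols in the count table. RNA was measured in epithelial cells from the small intestine of naïve mice, all of the genotype Il25-RFP/+;Chat-GFP(Tg+), in which a red reporter marks Il25 and a green transgenic reporter marks Chat. CD45-negative, EPCAM-positive, RFP-positive cells were sorted with GFP (Chat-pos, 4 libraries) and without GFP (Chat-neg, 4 libraries), so both groups carry both reporters and differ by the green gate. The labels give no age, sex or animal for a library, so the p-values below measure the spread between libraries, which may in part be technical.

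Enterocytes take up the products of digestion along the villus. Hydrolases anchored in the brush border cut sugars, peptides and phosphate esters, transporters carry the products in, and fatty acids are bound by small cytosolic proteins, rebuilt into triglyceride and packed with apolipoproteins into chylomicrons. The programme is zoned: antimicrobial Reg proteins are known from the villus bottom, carbohydrate and amino acid uptake from its middle, and lipoprotein and purine genes from its tip. Tuft cells are chemosensory cells of the same epithelium and are not absorptive.

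Named genes received 1757401 to 2541955 counts in the Chat-pos libraries and 87642 to 1176880 in the Chat-neg libraries. The shallowest, Chat-neg replicate 1, held fewer than 10 counts for 13 of the 32 genes. The 20 tuft cell markers summed to 3.22% to 3.40% of named-gene counts in Chat-pos and 1.52% to 2.61% in Chat-neg, none of them at 0 in any library. The list holds Il25 and Chat, whose reporters were used in the sort, so it is not independent of the gates. Chat-pos replicates 2 and 3 stood apart, with 5.83% and 3.27% of their counts in 12 Paneth cell markers, against 0.0600% and 0.0485% in Chat-pos replicates 1 and 4 and 0.0787% to 0.361% in Chat-neg. Levels are given in CPM, TMM-scaled counts relative to the library's total over the 8919 genes kept for testing. Those genes held 89.0% of named-gene counts in Chat-neg replicate 1 and 96.9% to 98.4% in the other libraries. Shares are a percentage of unscaled named-gene counts. In bulk libraries such as these, fewer cells of a type and less RNA per cell cannot be told apart.

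Lgals3 was the 1 enterocyte gene whose difference between the gates passed the test. Of the 32 genes, 30 passed the filter on low counts and were tested. Lgals3 rose in Chat-pos and none fell (edgeR's quasi-likelihood test, Benjamini-Hochberg adjusted p under 0.05). That is 3.33% of the tested genes higher, where 3.62% of all 8919 genes tested were higher and 2.87% lower (323 and 256 genes; 225 and 380 with total count scaling). At an unadjusted p under 0.05, 3 of the 30 were higher (Lgals3, Apoa1 and Ada) and 0 lower, and DESeq2 and limma-voom also called no fall. The median log2 difference was 0.01 over the 30 genes and -0.02 over all genes tested, with 15 of the 30 above 0 and 15 below. Lgals3 was also the 1 tested member whose groups did not overlap upward, against 8.58% of all genes tested, and 0 did so downward, against 5.42%. The standard errors, each the absolute log2 difference over the square root of edgeR's F statistic, ran from 0.21 to 1.62 on the log2 scale. Their median was 0.34 (0.33 over all genes), and 9 genes had one above 0.5.

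**Figure D1:**
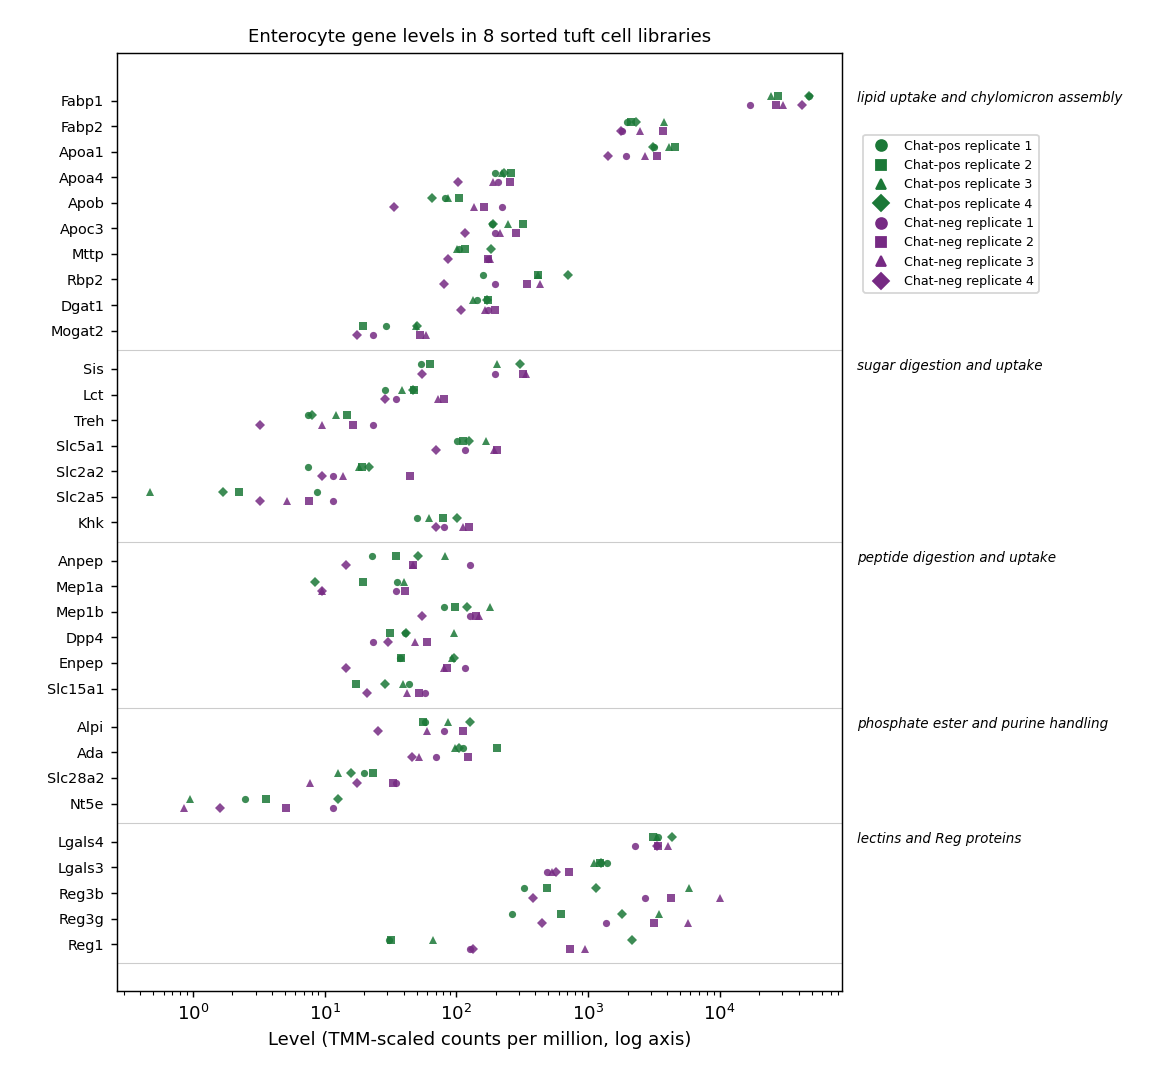
Level of each of the 32 enterocyte genes in TMM-scaled CPM (log axis). Each point is 1 library, Chat-pos green and above, Chat-neg purple and below. Fabp1 stands highest, the groups overlap for every gene but Lgals3, and the 3 Reg genes spread widely among libraries of 1 gate, as do Slc2a5 and Nt5e at their low counts.

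**Figure D2:**
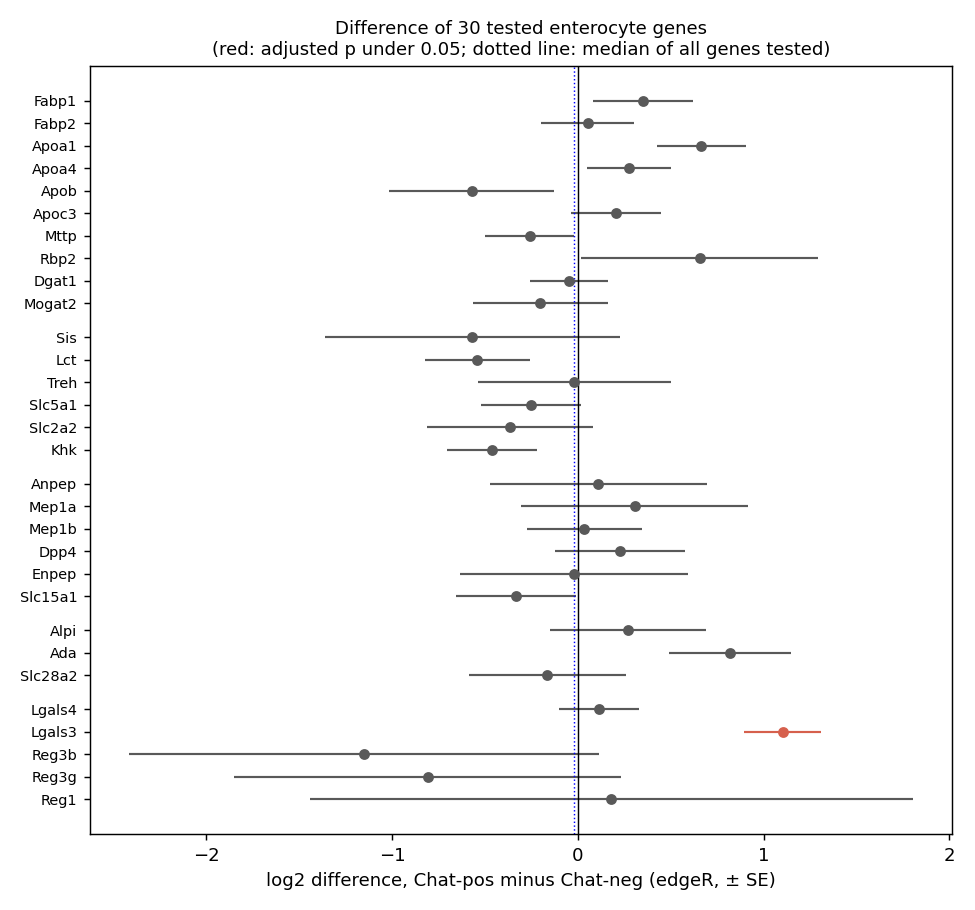
log2 difference, Chat-pos minus Chat-neg, with a standard error derived from edgeR's F statistic, for the 30 tested enterocyte genes, in the order of the roles in the text. Lgals3, in red at 1.10, is the gene past the threshold; the Reg genes have the widest errors.

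Fabp1, the liver-type fatty acid-binding protein that enterocytes use to carry fatty acids in the cytosol, was the most abundant of the 32 genes and among the most abundant of all genes. It took 4.37%, 2.61%, 2.37% and 4.50% of named-gene counts in Chat-pos replicates 1 to 4 and 1.66%, 2.67%, 2.97% and 4.32% in Chat-neg replicates 1 to 4. It ranked first of all genes by count in Chat-pos replicates 1 and 4 and in Chat-neg replicates 3 and 4, and at rank 6, its lowest, in Chat-neg replicate 1. The exact 95% binomial (Clopper-Pearson) interval was 1.58% to 1.75% in the shallowest library; it covers counting error only, as no source used here names molecular identifiers. Per kb of exon, Fabp1 averaged 67072.5 CPM in the Chat-pos libraries and 52489.5 CPM in Chat-neg, while Sh2d6, the most abundant tuft marker, averaged 4776 CPM per kb in the Chat-pos libraries and 2506 CPM per kb in Chat-neg. On the CPM scale Fabp1 stood at 47785, 27943, 24505 and 48130 in Chat-pos replicates 1 to 4, against 16974, 26662, 30140 and 42331 in Chat-neg replicates 1 to 4. Each gate had low and high libraries and the ranges overlapped. The log2 difference was 0.35 ± 0.27 (SE; edgeR adjusted p = 0.512).

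Fabp1 lies on chromosome 6 of GRCm38 at 71199827 to 71205023, plus strand. RefSeq starts differ from the outermost starts of these GENCODE spans. The 150 bases before its RefSeq start are shown because no other enterocyte gene reached its level, with matches to TATAAA and to TTTATNG, letters bound by Cdx homeobox factors, in capitals.
Fabp1, chr6:71199729-71199878 (+ strand): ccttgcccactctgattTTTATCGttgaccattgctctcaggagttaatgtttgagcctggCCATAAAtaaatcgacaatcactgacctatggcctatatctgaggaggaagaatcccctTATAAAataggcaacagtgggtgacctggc

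No gene of lipid handling passed the test: 0 of 10 rose or fell, also with DESeq2 or limma-voom, 1 was higher at an unadjusted p under 0.05, and the median log2 difference was 0.13. Apoa1, the main protein of high-density lipoprotein and a chylomicron component, came nearest. It stood at 3172, 4622, 4111 and 3102 CPM in Chat-pos replicates 1 to 4 and at 1931, 3353, 2738 and 1426 CPM in Chat-neg replicates 1 to 4. A single Chat-neg library, replicate 2, lay inside the Chat-pos range (log2 difference 0.66 ± 0.24, edgeR adjusted p = 0.0944). Apoc3, an apolipoprotein that slows triglyceride clearance, and Apoa4, a chylomicron apolipoprotein, share the chromosome 9 cluster with Apoa1. Apoc3 averaged 236 ± 62.5 CPM in the Chat-pos libraries and 203 ± 68.5 CPM in Chat-neg (SD over 4 libraries of each gate), and Apoa4 averaged 227 ± 25.7 CPM in the Chat-pos libraries and 189.6 ± 63.8 CPM in Chat-neg. Of the 74-base windows of Apoa4 transcripts, 56.3% also occur in Gm10680 or Gm47528, so its count is uncertain.

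Apob, the scaffold protein of the chylomicron, had a difference of the opposite sign that did not pass. It had 82.1, 105, 86.5 and 66.1 CPM in Chat-pos replicates 1 to 4 and 221, 162, 137 and 33.7 CPM in Chat-neg replicates 1 to 4. The 3 other Chat-neg libraries lay above every Chat-pos library and Chat-neg replicate 4 below all of them (log2 difference -0.57 ± 0.45, edgeR adjusted p = 0.544). Without that library the difference was -0.91 and passed (edgeR adjusted p = 0.0229). Mttp, which loads lipid onto Apob, averaged 127 ± 39.0 CPM in the Chat-pos libraries and 154 ± 45.2 CPM in Chat-neg. Of its windows, 6.08% also occur in Trmt10a or Gm43691.

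Fabp2, the intestinal fatty acid-binding protein, averaged 2545 ± 827 CPM in the Chat-pos libraries and 2447 ± 891 CPM in Chat-neg, with a log2 difference of 0.05 ± 0.25. Rbp2, which binds retinol in enterocytes, ranged more widely, at 161, 414, 422 and 710 CPM in Chat-pos replicates 1 to 4 and 198, 343, 434 and 80.2 CPM in Chat-neg replicates 1 to 4. Of the triglyceride-building enzymes, Dgat1, which adds the last fatty acid, averaged 155 ± 19.6 CPM in the Chat-pos libraries and 162 ± 37.2 CPM in Chat-neg, and Mogat2, which acylates monoglyceride, averaged 37.1 ± 15.2 CPM in the Chat-pos libraries and 38.3 ± 20.8 CPM in Chat-neg. Their log2 differences were -0.05 ± 0.21 and -0.20 ± 0.36.

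All 6 tested genes of sugar digestion had a difference below 0, yet 0 passed, also at an unadjusted p under 0.05 or with DESeq2 or limma-voom, and the median was -0.41. The sign was not stable for all 6: Treh, at -0.02 ± 0.52, was above 0 in 9 of 17 alternatives, and Slc2a2 was at 0.51 without Chat-neg replicate 2. Sis, the brush border sucrase-isomaltase, had the largest standard error of the 6. It stood at 54.1, 62.7, 203 and 308 CPM in Chat-pos replicates 1 to 4 and at 198, 320, 340 and 54.6 CPM in Chat-neg replicates 1 to 4. Chat-pos replicates 1 and 2 and Chat-neg replicate 4 were low, and the other 5 libraries lay at 198 CPM or above (log2 difference -0.57 ± 0.79, edgeR adjusted p = 0.759). Lct, lactase, averaged 40.5 ± 8.89 CPM in the Chat-pos libraries and 54.1 ± 26.0 CPM in Chat-neg (-0.54 ± 0.28, edgeR adjusted p = 0.282). Khk, ketohexokinase, which phosphorylates fructose, averaged 73.1 ± 22.2 CPM in the Chat-pos libraries and 97.5 ± 25.6 CPM in Chat-neg (-0.46 ± 0.24, edgeR adjusted p = 0.285).

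Among the sugar transporters, Slc5a1, the sodium-glucose cotransporter of the brush border, was the most abundant per length, at 31 CPM per kb in the Chat-pos libraries and 35.5 CPM per kb in Chat-neg. Its log2 difference was -0.25 ± 0.27. Slc2a2, the glucose exit transporter, had 2.91 CPM per kb in Chat-pos against 3.46 in Chat-neg, and Slc2a5, the fructose transporter, 0.963 in Chat-pos against 2.03 in Chat-neg. Slc2a5 had at most 14 counts in a library and was not tested. Treh, trehalase, averaged 10.6 ± 3.51 CPM in the Chat-pos libraries and 13.1 ± 8.68 CPM in Chat-neg.

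Peptide digestion gave 0 calls of 6 genes, 0 at an unadjusted p under 0.05 and 0 with DESeq2 or limma-voom, with a median log2 difference of 0.07. Mep1b, the beta subunit of the metalloprotease meprin, was the most abundant per length, at 45.7 CPM per kb in the Chat-pos libraries and 44.9 CPM per kb in Chat-neg. Its partner Mep1a had 7.51 CPM per kb in Chat-pos against 6.87 in Chat-neg. Enpep, an aminopeptidase for acidic residues, stood at 37.3, 38.1, 92.1 and 95.9 CPM in Chat-pos replicates 1 to 4 and at 116, 85.4, 81.1 and 14.4 CPM in Chat-neg replicates 1 to 4. As for Sis, Chat-neg replicate 4 and Chat-pos replicates 1 and 2 were the low libraries. Anpep, aminopeptidase N, averaged 47.7 ± 25.4 CPM in the Chat-pos libraries and 59.0 ± 48.4 CPM in Chat-neg. Dpp4, a dipeptidyl peptidase that also cuts incretins, averaged 52.5 ± 29.6 CPM in the Chat-pos libraries and 40.5 ± 16.7 CPM in Chat-neg, and Slc15a1, the peptide transporter, 32.5 ± 11.8 CPM in the Chat-pos libraries and 43.4 ± 16.4 CPM in Chat-neg. None of these 6 had an absolute log2 difference above 0.33.

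In the phosphate ester and purine group 0 of 3 tested genes passed, with 1 higher at an unadjusted p under 0.05. Ada, adenosine deaminase, had 112, 204, 98.3 and 104 CPM in Chat-pos replicates 1 to 4 and 69.8, 124, 51.8 and 46.5 CPM in Chat-neg replicates 1 to 4. The 3 other Chat-neg libraries lay below all Chat-pos libraries, and Chat-neg replicate 2 lay inside their range (log2 difference 0.82 ± 0.33, edgeR adjusted p = 0.171). Without Chat-neg replicate 2 the difference was 1.34 and passed (edgeR adjusted p = 0.0166), and with no filter on low counts it was 1.04 and passed (edgeR adjusted p = 0.022). Alpi, the intestinal alkaline phosphatase of the brush border, averaged 82.2 ± 33.3 CPM in the Chat-pos libraries and 70.0 ± 36.9 CPM in Chat-neg (0.27 ± 0.42, edgeR adjusted p = 0.78). Slc28a2, a nucleoside transporter, averaged 17.99 ± 4.59 CPM in the Chat-pos libraries and 23.4 ± 13.0 CPM in Chat-neg, and 25.1% of its windows also occur in Gm14085. Nt5e, the ectoenzyme that makes adenosine, had 4, 8, 2 and 30 counts in Chat-pos replicates 1 to 4 and 1, 4, 1 and 1 in Chat-neg replicates 1 to 4, and was not tested.

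Lgals3, which encodes the galactoside-binding lectin galectin-3, was 2.15-fold higher in Chat-pos. Its level was 1402, 1245, 1109 and 1248 CPM in Chat-pos replicates 1 to 4 and 489, 725, 532 and 570 CPM in Chat-neg replicates 1 to 4. Every Chat-pos library lay above every Chat-neg library (log2 difference 1.10 ± 0.21, edgeR adjusted p = 0.00114), and the call held in all 8 fits that left out a library. The summed tuft markers, with Chat among them, were also higher in each Chat-pos library than in each Chat-neg library, as given above. Their part in the Lgals3 difference was not tested. Lgals4, galectin-4, a lectin of the apical enterocyte membrane, averaged 3564 ± 559 CPM in the Chat-pos libraries and 3286 ± 747 CPM in Chat-neg (0.11 ± 0.21, edgeR adjusted p = 0.821). The Lgals4 count was 2.43 to 3.51 times the Lgals3 count in Chat-pos libraries and 4.64 to 7.65 times it in Chat-neg libraries.

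Lgals3 lies on chromosome 14 at 47367751 to 47386160, plus strand. The 150 bases before its RefSeq start are shown as those of the 1 enterocyte gene that passed the test. They hold no match to the 4 motifs searched and so no capitals.
Lgals3, chr14:47373710-47373859 (+ strand): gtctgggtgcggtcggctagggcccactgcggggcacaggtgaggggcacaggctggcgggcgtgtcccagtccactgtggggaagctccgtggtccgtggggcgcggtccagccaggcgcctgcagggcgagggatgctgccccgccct

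The Reg genes, which encode secreted C-type lectins of the intestinal defence, had the 3 largest standard errors of the 30 tested genes, and none of the 3 passed the test. Reg3b stood at 327, 491, 5888 and 1159 CPM in Chat-pos replicates 1 to 4 and at 2699, 4307, 10018 and 385 CPM in Chat-neg replicates 1 to 4, an 18-fold range within Chat-pos and a 26.0-fold range within Chat-neg. Reg3g stood at 264, 629, 3497 and 1800 CPM in Chat-pos replicates 1 to 4 and at 1361, 3205, 5770 and 449 CPM in Chat-neg replicates 1 to 4. Both were low in Chat-pos replicates 1 and 2 and in Chat-neg replicate 4, the libraries that were also low in Sis. Their log2 differences were -1.15 ± 1.26 and -0.81 ± 1.04 (edgeR adjusted p = 0.691 and 0.739).

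Reg1 had another pattern in Chat-pos. It was at 31.1, 31.8, 67.1 and 2153 CPM in Chat-pos replicates 1 to 4 and at 128, 733, 943 and 135 CPM in Chat-neg replicates 1 to 4. Chat-pos replicate 4 alone exceeded the other Chat-pos libraries, and Chat-pos replicate 3, which was high in Reg3b and Reg3g, was low in Reg1. The log2 difference was 0.18 ± 1.62, and it was -3.54 without Chat-pos replicate 4 (edgeR adjusted p = 0.127). It was below 0 in 5 of 17 alternatives and passed in 0 of them. With all libraries kept it was -2.37 with a replicate block in edgeR and -2.09 with limma-voom. The Reg1 count was 0.0114 times the Reg3b count in Chat-pos replicate 3 and 1.86 times it in Chat-pos replicate 4. Of the Chat-pos libraries rich in Paneth cell markers, replicate 2 was low in all 3 Reg genes and replicate 3 was high in Reg3b and Reg3g.

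The 3 genes lie near each other on chromosome 6, Reg3b at 78370657 to 78373466 and Reg1 at 78422711 to 78428667 on the plus strand, Reg3g at 78466269 to 78468872 on the minus strand. No 74-base window of their transcripts occurs in another gene. Their upstream sequences are set side by side since Reg1 went apart from Reg3b and Reg3g in Chat-pos, while in Chat-neg all 3 were higher in replicates 2 and 3 than in replicate 4. Over the 300-base RefSeq windows, 69.0% of aligned positions were identical between Reg3b and Reg3g, 52.6% between Reg3b and Reg1 and 53.6% between Reg3g and Reg1. Capitals mark TATAAA and TTTATNG; in Reg3g the marked stretch holds both, overlapping on opposite strands.
Reg3b, chr6:78370735-78370884 (+ strand): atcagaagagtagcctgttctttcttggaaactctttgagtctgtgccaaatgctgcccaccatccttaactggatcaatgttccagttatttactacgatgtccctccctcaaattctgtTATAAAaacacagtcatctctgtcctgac
Reg3g, chr6:78468875-78469024 (- strand): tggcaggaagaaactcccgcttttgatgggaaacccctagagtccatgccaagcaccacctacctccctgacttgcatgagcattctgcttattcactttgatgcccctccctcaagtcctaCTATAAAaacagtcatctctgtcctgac
Reg1, chr6:78425833-78425982 (+ strand): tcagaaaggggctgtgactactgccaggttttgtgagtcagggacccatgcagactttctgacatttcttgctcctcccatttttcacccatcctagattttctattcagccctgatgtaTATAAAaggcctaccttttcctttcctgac

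RefSeq windows of GRCm38.p6, 250 bases before to 50 after the start, were at hand for 28 of the 32 genes and were searched on both strands. TATAAA was in 10 of 28 (35.7%), against 13.6% of 32851 windows of all genes. TTTATNG was in 11 (39.3%, against 10.9%), namely those of Fabp1, Fabp2, Apob, Rbp2, Sis, Mep1a, Dpp4, Alpi, Slc28a2, Reg3g and Reg1. On the other strand TTTATNG reads CNATAAA, so a TATA box written CTATAAA matches both motifs. The shares of the TATAAA and TTTATNG motifs are therefore not independent. Fabp1, Apob, Rbp2, Sis, Dpp4, Alpi, Reg3g and Reg1 held both. CAAAGNCCA, letters bound by Hnf4, was in 2 (7.14%, against 1.98%), and AGATAA, letters bound by Gata factors, in 4 (14.3%, against 11.2%). A match is no evidence of binding.

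Libraries of 1 gate differed among themselves, and the enterocyte genes did not vary as 1 block. Chat-neg replicate 4 was the lowest Chat-neg library for 23 of the 30 tested genes and the highest for 1, Fabp1. Chat-pos replicate 1 was the lowest Chat-pos library for 16. The 9 brush border hydrolases (Alpi, Anpep, Sis, Lct, Treh, Mep1a, Mep1b, Dpp4 and Enpep) summed to 0.0335%, 0.0377%, 0.0805% and 0.0755% of counts in Chat-pos replicates 1 to 4, against 0.0753%, 0.0904%, 0.0803% and 0.0241% in Chat-neg replicates 1 to 4. These 9 genes were chosen after the values were seen. Fabp1 had 883, 446, 121 and 156 counts for each count of Sis in Chat-pos replicates 1 to 4, and 85.8, 83.4, 88.6 and 776 in Chat-neg replicates 1 to 4. Fabp1 was near its highest in Chat-pos replicate 1 and Chat-neg replicate 4, where Sis was lowest. Fabp1 to Fabp2 ran from 6.5 to 24.2 in Chat-pos and from 7.22 to 23.6 in Chat-neg. Apoa1 and Apoc3 kept closer, at 14.5 to 17.1 counts of Apoa1 for each of Apoc3 in Chat-pos and 9.76 to 12.8 in Chat-neg. Fabp1 to the tuft marker Dclk1 lay between 12.5 and 25 in Chat-pos and between 12.7 and 25.7 in Chat-neg. Over all libraries that is a 2.06-fold range, where Fabp1 to Fabp2 spanned 3.72-fold and Fabp1 to Sis 10.6-fold. These partners were picked from many, and other tuft or enterocyte genes can give other ranges. Whether Fabp1 follows either cell type was not tested.

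**Figure D3:**
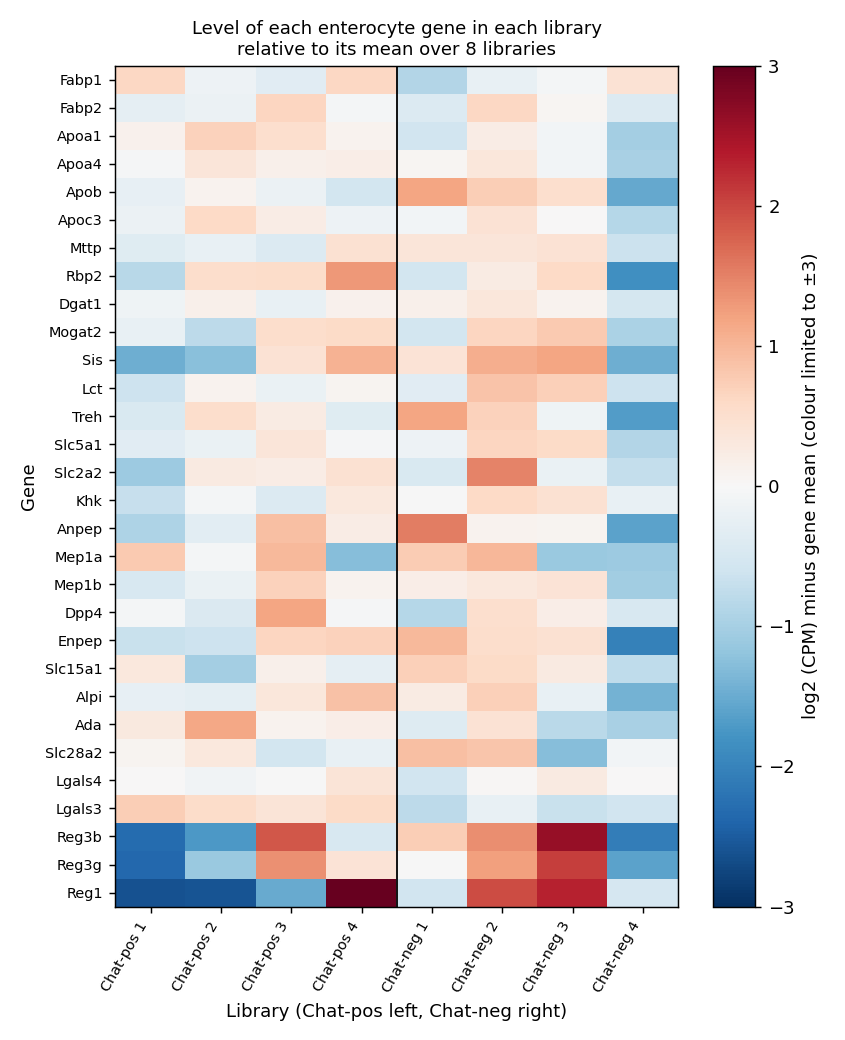
log2 CPM of each tested enterocyte gene minus its mean over the 8 libraries, Chat-pos left and Chat-neg right of the line (red above, blue below the mean). Chat-neg replicate 4 and Chat-pos replicate 1 are blue for most genes but red for Fabp1, and the Reg genes at the bottom have the strongest colours.

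**Figure D4:**
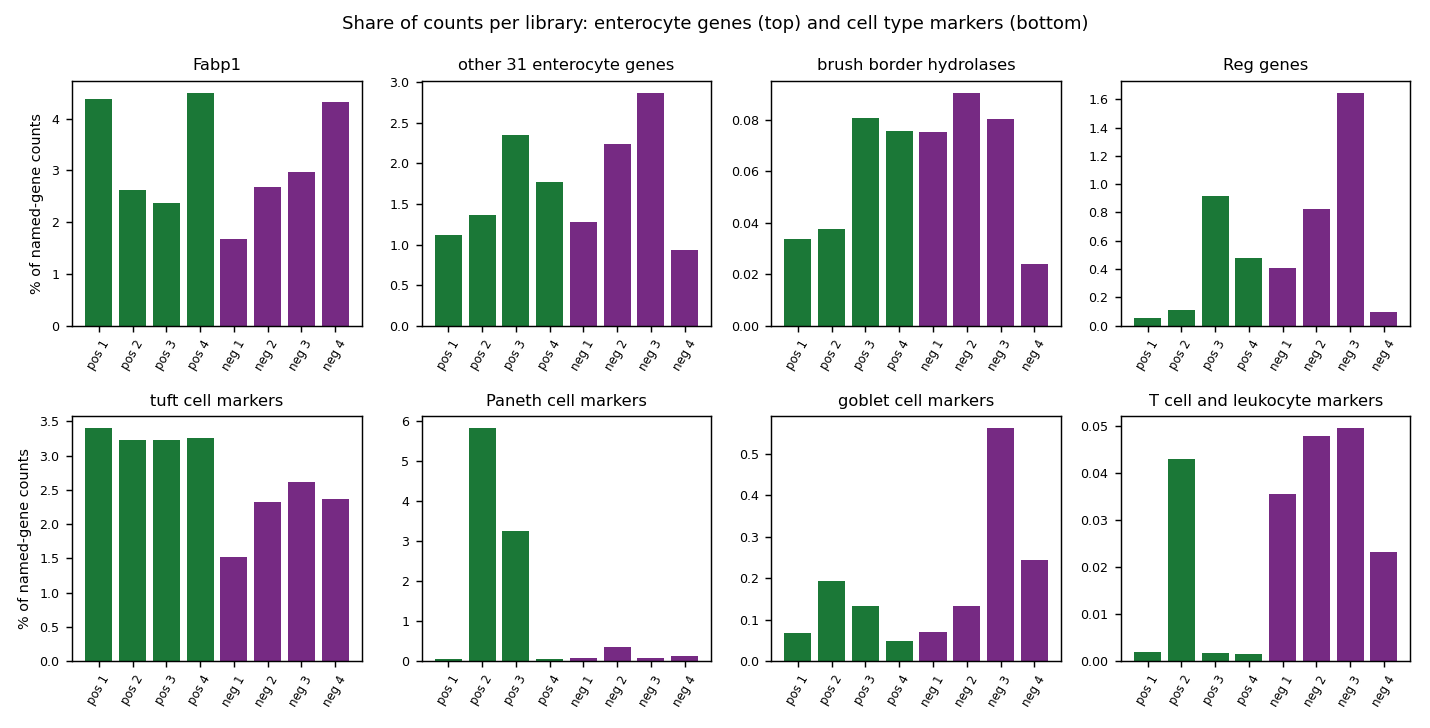
Percentage of named-gene counts in each library for Fabp1, the other 31 enterocyte genes, the brush border hydrolases and the Reg genes (top), and for marker lists of tuft, Paneth, goblet and T cells (bottom); each panel has its own axis. Bars for the hydrolases and Reg genes are low in Chat-pos replicates 1 and 2 and Chat-neg replicate 4, while Paneth markers are high in Chat-pos replicates 2 and 3.

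Genes of 3 villus zones were set beside the members; these lists were chosen with earlier results of the same data known, so their counts are a description and support no difference between zones. Of 9 bottom genes 2 fell and 0 rose, where 2.87% of all genes fell and 3.62% rose, with a median log2 difference of -1.01, and the 6 of them outside the 32 genes were all below 0. The 2 that fell were named after their values were seen. Pigr, the receptor that carries IgA across the epithelium, averaged 275 ± 10.9 CPM in the Chat-pos libraries and 716 ± 189 CPM in Chat-neg (-1.39 ± 0.21, edgeR adjusted p = 0.000149), with no overlap. Nlrp6, an inflammasome sensor, had 12.4, 15.2, 20.8 and 33.2 CPM in Chat-pos replicates 1 to 4 and 81.4, 43.3, 38.0 and 54.6 CPM in Chat-neg replicates 1 to 4 (-1.21 ± 0.32, edgeR adjusted p = 0.0182). Its call was lost in 5 of the 8 fits that left out a library (edgeR adjusted p = 0.052 to 0.0768: Chat-pos replicates 1, 2 and 3 and Chat-neg replicates 2 and 4), and also without the 2 Paneth-rich libraries (-0.93, edgeR adjusted p = 0.2). Goblet cell markers summed to 0.0488% to 0.194% of counts in Chat-pos and 0.0707% to 0.563% in Chat-neg, and their part in these falls was not tested. In the mid-villus list 0 of 10 tested genes passed, 0 at an unadjusted p under 0.05, and the median was 0.11. In the tip list 0 of 9 tested genes passed, 3 were higher at an unadjusted p under 0.05, and the median was 0.24. Both lists hold members, among them Fabp1 in the mid-villus list and Apob and Ada in the tip list. The values of both lists thus repeat member results in part. DESeq2 and limma-voom called none of either list. The tip list summed to 0.116% to 0.129% of counts in Chat-pos and 0.0773% to 0.128% in Chat-neg, and the bottom list to 0.141% to 1.09% in Chat-pos and 0.288% to 2.00% in Chat-neg.

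Of 58 further genes of absorption and digestion, 50 were tested, 3 rose and 0 fell, where 3.62% of all genes rose and 2.87% fell; the median was -0.13. At an unadjusted p under 0.05, 5 were higher and 4 lower; DESeq2 called 4 higher, limma-voom 3, and neither called any lower. Cideb, a lipid droplet protein that acts in lipoprotein lipidation, rose most. It stood at 78.4, 118, 137.5 and 133 CPM in Chat-pos replicates 1 to 4, against 0, 39.5, 48.3 and 32.1 CPM in Chat-neg replicates 1 to 4 (log2 difference 1.64 ± 0.29, edgeR adjusted p = 0.000832). The count of 0 in Chat-neg replicate 1 allows up to 34.2 CPM before scaling. Slc6a19, the brush border transporter of neutral amino acids, averaged 133 ± 34.9 CPM in the Chat-pos libraries and 59.5 ± 28.1 CPM in Chat-neg (0.99 ± 0.25, edgeR adjusted p = 0.0132). Guca2b, the peptide uroguanylin, averaged 775 ± 163 CPM in the Chat-pos libraries and 390.2 ± 120 CPM in Chat-neg (0.97 ± 0.23, edgeR adjusted p = 0.00869). Slc6a19 lost its call without Chat-pos replicate 3 or Chat-neg replicate 3 (edgeR adjusted p = 0.0581 and 0.0607), and Guca2b without Chat-neg replicate 4 (0.0537). Cdhr5, a cadherin that links microvilli, and 2200002D01Rik had the highest CPM of the 58 and did not pass in edgeR, at 0.45 ± 0.20 and -0.45 ± 0.22; DESeq2 called Cdhr5 higher (0.45, DESeq2 adjusted p = 0.0437).

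Among 18 transcription factors known from enterocyte programmes, 15 were tested, 1 rose and 0 fell, where 3.62% of all genes rose and 2.87% fell. At an unadjusted p under 0.05, 3 were lower, DESeq2 and limma-voom called none lower, and the median was -0.23. Cdx1, an intestinal homeobox factor, averaged 328 ± 33.1 CPM in the Chat-pos libraries and 181 ± 43.5 CPM in Chat-neg (0.80 ± 0.21, edgeR adjusted p = 0.0153). It did not pass without Chat-pos replicate 2 or Chat-neg replicate 2 (edgeR adjusted p = 0.0652 and 0.0563). Maf stood at -0.84 ± 0.29 and Vdr, the vitamin D receptor, at -0.68 ± 0.25 (edgeR adjusted p = 0.0754 and 0.101). Klf5 averaged 338 ± 31.9 CPM in the Chat-pos libraries and 350.4 ± 99.9 CPM in Chat-neg.

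Counts on 1461 protein-coding olfactory and vomeronasal receptor genes, taken to be silent here, give a background per length. It was 0.0284 to 0.0535 CPM per kb in Chat-pos and 0.0711 to 0.768 CPM per kb in Chat-neg, highest in the shallowest library. Fabp1 was at least 39197 times that background in every library and Lgals3 at least 336 times. The lowest enterocyte genes came near it: Nt5e was 1.39 times the background in Chat-neg replicate 3, and Slc2a2 2.58, Slc2a5 4.26 and Dpp4 4.70 times at their lowest. The other 28 genes were at least 6.96 times the background in each library. No enterocyte library was analysed here to set these levels against.

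Other cell type markers, each list by its 2 most abundant genes, were Defa24 and Defa30 (Paneth), Zg16 and Tff3 (goblet), Sct and Chgb (enteroendocrine), Olfm4 and Slc12a2 (stem), Gzma and Ccl5 (T cell), Pcna and Birc5 (proliferation), and Pecam1 and Col1a1 (stroma). Enteroendocrine markers took 0.118% to 0.177% of counts in Chat-pos and 0.0593% to 0.169% in Chat-neg. Sct gave most of this sum in every library, and Chgb had 215 counts in Chat-neg replicate 4 and at most 7 elsewhere. T cell and leukocyte markers took 0.00193%, 0.0428%, 0.00174% and 0.00149% in Chat-pos replicates 1 to 4 and 0.0232% to 0.0495% in Chat-neg. Gzma and Ccl5 did not pass in edgeR with all libraries (log2 difference -1.84 and -1.23, edgeR adjusted p = 0.556 and 0.673). With all libraries limma-voom called Gzma lower (-4.09, limma-voom adjusted p = 0.00967). Without Chat-pos replicate 2 Gzma and Ccl5 were at -5.76 and -4.05 and passed (edgeR adjusted p = 4.18e-12 and 4.86e-05). Stem, proliferation and stroma lists each took at most 0.115% in a library. Of the tested markers, 9 of 20 tuft genes rose, where 3.62% of all genes rose and 2.87% fell. The tuft list holds Chat, whose reporter separated the gates. In the enteroendocrine list 1 of 1 gene rose (Sct, not without Chat-pos replicate 1 or Chat-neg replicate 2, edgeR adjusted p = 0.0685 and 0.115). Among goblet genes 1 of 9 fell, and among T cell genes 1 of 7. For Paneth 0 of 12, for stem 0 of 7 and for proliferation 0 of 9 genes passed. At an unadjusted p under 0.05, 15 tuft, 5 Paneth, 1 enteroendocrine and 1 stem gene were higher. Lower were 5 proliferation, 4 goblet and 2 T cell genes. Defa24 and Defa30 were at 3.68 and 3.82 with all libraries. Without the 2 Paneth-rich libraries they were at -1.57 and -1.88 (edgeR adjusted p = 0.409 and 0.474). Of 14 enteroendocrine markers 4 to 8 were at 0 in a Chat-pos library and 4 to 10 in a Chat-neg library.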

How the data were processed

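The authors deposited 1 table of raw gene counts, whole numbers per gene and library, as its values show; per the submitters' processing notes the build is GRCm38, while for aligner, counter and annotation the entry is: not given in the sources used here. Rows with no gene name held 58.6% to 88.4% of a library's counts and stayed out of library sizes and tests. Named-gene counts ran from 87642 to 2541955 per library. The genes and lists were chosen with earlier results of these data known. Chat-pos was compared with Chat-neg (4 libraries each) in edgeR 4.0.16 (R 4.3.3) with TMM scaling, filterByExpr and the robust quasi-likelihood test, p-values adjusted by Benjamini-Hochberg over 8919 genes, threshold 0.05. Alternatives tried were scaling by total count, by upper quartile or by RLE, other filters, a replicate block, DESeq2 1.42.0, limma-voom (limma 3.58.1) with quality weights, and leaving out libraries. Named genes were all 32 enterocyte genes, the 3 smallest p and 2 highest mean CPM of each related list, and the 2 most abundant of each marker list; named zone genes and the hydrolases were picked after their values were seen. On simulated counts (8645 genes, same comparison), the test recovered 2.99% of 1.5-fold, 27% of 2-fold and 87.1% of 4-fold changes, with 8 false among 81 calls. Exon lengths and 74-base shared windows came from GENCODE M21, upstream sequences from RefSeq GRCm38.p6.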

Additional observations from a re-analysis of the deposited data

Results flagged for a closer look

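In 60 genes, 120 groups of 4 libraries were searched for a library far from the other 3 (Dixon's ratio), and 12 were found; chance flags about 1 in 20 groups. Among the enterocyte genes, Reg3b was at 5888 CPM in Chat-pos replicate 3 and Reg1 at 2153 CPM in Chat-pos replicate 4, both far above the other Chat-pos libraries. Dpp4 was high in Chat-pos replicate 3 (96.4 CPM) and Ada in Chat-pos replicate 2 (204 CPM). Slc2a2 was high in Chat-neg replicate 2 (44.6 CPM), and Mttp low in Chat-neg replicate 4 (86.6 CPM). Outside them, Cdx1 was low in Chat-neg replicate 1 (116 CPM) and the tuft marker Sh2d6 was low in Chat-pos replicate 1 (7505 CPM). The Paneth marker Defa30 was high in Chat-neg replicate 2 (696 CPM) and the goblet marker Zg16 in Chat-neg replicate 3 (2706 CPM). The leukocyte markers Gzma and Ccl5 were high in Chat-pos replicate 2 (200.3 and 147 CPM).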

How the results depend on the processing

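Over 17 alternatives Lgals3 stayed called, with a log2 difference of 0.97 to 1.34; 27 of the 30 tested enterocyte genes were called in none, and 14 kept one sign while 16 did not. No called result reversed. Leaving out each library gave 138 to 360 genes higher and 110 to 309 lower, against 323 and 256; without filter 143 were lower, and without the 2 Paneth-rich libraries 86. Total count scaling moved the median of all genes to -0.14 and gave 225 higher and 380 lower; limma-voom gave 314 and 355. Higher enterocyte genes numbered 2 without filter and with the replicate block (Ada added, at 0.89 with the block, edgeR adjusted p = 0.0166) and 1 to 2 with a library left out; lower ones 0 to 1. Lower bottom-zone genes numbered 1 without filter, 1 without the Paneth-rich libraries and 1 to 3 with a library left out. Tip genes higher numbered 1 without filter, 1 with the replicate block and 0 to 1 with a library left out. Lower ones numbered 0 to 1. These tip calls were Ada and Apob, already counted among the enterocyte genes. Of the other enterocyte genes 2 to 3 were higher and 0 to 2 lower with a library left out. Regulators gave 0 to 1 higher and 0 to 1 lower, and 1 lower under total count scaling (Maf). The causes were not tested. Same-number deviations correlated at 0.053, 0.033, -0.023 and -0.010 for replicates 1 to 4, and other pairs at -0.076 to 0.099. With 4 libraries per gate this cannot decide whether same-numbered libraries share an animal or a batch. The shallowest library limits genes of low count.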
